A study of Homo sapiens with 3 samples.

Results

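The first day after tetracycline was taken away was described in L428tetPU.1 cells as the values of the day 1 array set against those of the day 0 array. The genes described are all those whose probe has a name in the platform's annotation and was above background, with a detection p-value under 0.01, on at least 1 of these 2 arrays. There were 9311 such genes of 19367 named on the array. L428tetPU.1 derives from L428, an established line of classical Hodgkin lymphoma, and carries an inducible gene for PU.1 that stays silent while tetracycline is present. All cells were grown with fetal bovine serum and 500 ng/ml of tetracycline, and the day counts from its removal, so day 0 and day 1 differ in the drug as well as in the inducible gene. No line without the inducible gene was analysed here, and no source used here says whether the line is 1 clone. Each day has 1 array. Each RNA sample is described as coming from 4 independent experiments, but with 1 array a day, and no source used here says whether their RNA was pooled. With 1 array on each side no replicate error exists and no test was possible.

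PU.1, encoded by SPI1, is an ETS family transcription factor of myeloid cells and B cells. It binds DNA around a purine-rich core, often in promoters close to the start site, and partners there with interferon regulatory factors and with other factors of blood cells. Reed-Sternberg cells, the tumour cells of Hodgkin lymphoma, have lost most of the B cell program, PU.1 included. The SPI1 probe was not above background at either time, with an intensity of 40.8 at day 0 and 35.3 at day 1 and detection p-values of 0.152 and 0.263. The lowest intensities above background were 70.4 and 64.5. No rise of the PU.1 transcript was therefore measured, and no source used here says whether this probe reads the inducible gene.

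The values below are normalized signals, on a linear scale with no unit, or log2 changes from day 0 to day 1. A gene is said to have risen or fallen if it changed by at least 2-fold, that is by 1.0 on the log2 scale. For a gene above background on 1 of the arrays, the bound had to reach 2-fold as well. The bound sets its signal against the lowest signal above background on the other array, or against its own if higher, and is written as at least N-fold. By this rule 856 genes rose and 743 fell, and the share called was 17.2%, of which 9.19% of all measured genes were rises and 7.98% were falls.

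The letters that PU.1 is known to bind stood in the promoters of some of the genes that rose, and part of these are shown because they carry the sequence side of the comparison. Each line gives 30 bases on the strand that reads GAGGAAGT, with those letters in capitals.
OAS3: gagatgaaggaGAGGAAGTcgtagctggga
PTPN6: gcaggatcgagGAGGAAGTggctgattact
INPP5D: gtttctgtaatGAGGAAGTtctccgcagct
UPB1: attggctgcgcGAGGAAGTggcgtgtcctc
SAMD9L: ttgagaagcagGAGGAAGTtgaagtataga
BTK: ccgactcccatGAGGAAGTgcgatcgggaa
ARHGAP27: ccccagtccggGAGGAAGTtctgcccggcg
GPR137B: tggtgccggggGAGGAAGTgcggcttgttt
TNFAIP2: ccggctgctggGAGGAAGTgacagcgcccc
EHD1: ctcccagaagcGAGGAAGTtggacctgagg
The promoters are those of RefSeq for GRCh38.p14, from 250 bases before to 50 after a gene's start, and 7517 of the 9311 measured genes matched one. The genes shown were chosen after the values, as wide rises whose promoters hold the letters, and their order is no ranking, since OAS3, UPB1, BTK and TNFAIP2 were above background at day 1 only. No match was found for SIRPA, PLEK, CDKN1A, CD68 or PRG2, the widest rises above background on both arrays. Not every measured gene had a promoter to search. PTPN6, INPP5D, SAMD9L, BTK and GPR137B come up again below. UPB1 breaks down pyrimidines, TNFAIP2 is induced by tumour necrosis factor and EHD1 acts in endocytic recycling. Their regions are chr12:112938253-112938282 (plus) for OAS3, chr12:6946590-6946619 (plus) for PTPN6, chr2:233060268-233060297 (plus) for INPP5D, chr22:24495244-24495273 (plus) for UPB1, chr7:93148391-93148420 (plus) for SAMD9L, chrX:101390949-101390978 (plus) for BTK, chr17:45432900-45432929 (minus) for ARHGAP27, chr1:236142513-236142542 (plus) for GPR137B, chr14:103123247-103123276 (plus) for TNFAIP2 and chr11:64879826-64879855 (minus) for EHD1. The first base of the letters lay between 210 bases before the start, in OAS3, and 25 bases after it, in PTPN6.

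BTK, the kinase behind the B cell receptor, held these letters in 2 places before its start. The 250 bases before the start of BTK (chrX:101390797-101391046, minus strand) read from 5′ to 3′ as follows, with the letters in capitals on the other strand, as ACTTCCTC.
BTK: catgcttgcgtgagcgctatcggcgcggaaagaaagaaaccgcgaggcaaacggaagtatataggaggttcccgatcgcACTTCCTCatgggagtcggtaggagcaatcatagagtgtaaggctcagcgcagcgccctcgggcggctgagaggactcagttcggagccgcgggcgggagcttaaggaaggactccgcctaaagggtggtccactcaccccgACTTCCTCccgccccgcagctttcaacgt
OAS3, a sensor of double-stranded RNA that interferon induces, held 1 copy of the PU.1 letters and 2 copies of the interferon-stimulated response element, searched as GAAA, any 2 bases and GAAA again. Its 250 bases before the start (chr12:112938224-112938473, plus strand) show all 3 in capitals.
OAS3: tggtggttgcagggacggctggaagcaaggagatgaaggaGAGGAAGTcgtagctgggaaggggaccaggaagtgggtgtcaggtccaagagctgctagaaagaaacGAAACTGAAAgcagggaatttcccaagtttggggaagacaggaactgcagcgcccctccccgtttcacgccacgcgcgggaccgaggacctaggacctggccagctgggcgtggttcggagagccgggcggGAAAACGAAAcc
The response element, which interferon regulatory factors bind, is shown for 6 rises in 30-base windows, with the matching letters in capitals. MVP among them encodes the major vault protein.
OAS3: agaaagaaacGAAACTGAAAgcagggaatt
IFI44L: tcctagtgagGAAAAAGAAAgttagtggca
ARHGEF6: tgcaggttttGAAAAGGAAAaaccagcgtt
PARP14: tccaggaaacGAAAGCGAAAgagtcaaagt
SLC7A7: aacggggactGAAATGGAAAacaggaaaac
MVP: acccagattgGAAAATGAAAgccagatggg
Their regions are chr12:112938321-112938350 (plus) for OAS3, chr1:78620274-78620303 (plus) for IFI44L, chrX:136781125-136781154 (minus) for ARHGEF6, chr3:122680800-122680829 (plus) for PARP14, chr14:22819782-22819811 (plus) for SLC7A7 and chr16:29820182-29820211 (plus) for MVP.

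Both strands of every promoter were searched for both motifs. The PU.1 letters GAGGAAGT stood in 2.54% of all 27305 RefSeq promoters and in 2.87% of those of measured genes. Among genes that rose they stood in 44 of 686 promoters (6.41%), among rises of at least 4-fold in 19 of 149 (12.8%), among genes that fell in 9 of 608 (1.48%) and among measured genes that did neither in 2.62%. The interferon letters stood in 3.65% of all promoters, 6.85% of those of genes that rose and 1.48% of those that fell, and in 18 of the 28 matched promoters of interferon-induced effectors (64.3%). Letters of 3 other factors were searched in the same windows for comparison. Those of GABP, an ETS factor of housekeeping and mitochondrial genes, were searched as CCGGAAGT, which shares GGAAGT with the PU.1 letters. They stood in 9.75% of promoters of measured genes, 6.27% of those of rises, 7.73% of those of falls and 1 of the 149 promoters of rises of at least 4-fold (0.671%). Those of NRF1, a regulator of genes for mitochondria, searched as GCGCA, any 1 base and GCGC, stood in 13% of promoters of measured genes, 7% of those of rises and 14.5% of those of falls. The E-box CACGTG, which MYC and its partners bind, stood in 10.5%, 8.31% and 12.8% in the same order. The promoters differ in base composition, with a median of 61.3% G and C for rises of at least 4-fold against 65.0% for measured genes, 66% for falls and 53.3% for interferon-induced effectors. The part of composition in the shares was not tested. A match of letters is no binding site, and these counts carry no test. Genes whose promoter held the PU.1 letters also included the chemokine gene CCL22, with a signal of 63 to 214, the leukotriene pathway gene ALOX5AP, at 336 to 1413, and the Ras activator gene RASGRP3, at 706 to 2039.

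**Figure D1:**
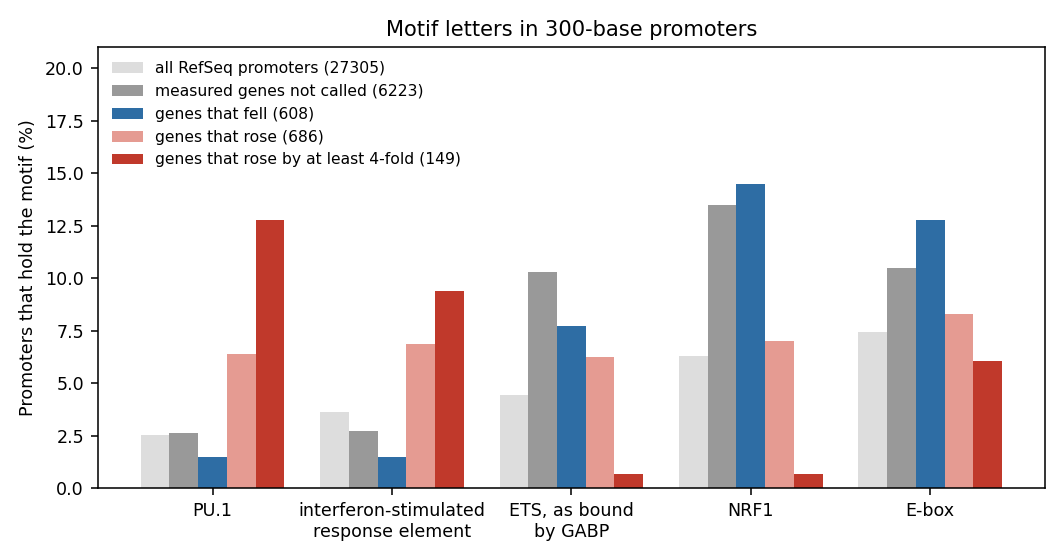
Share of 300-base RefSeq promoters that hold the letters of each motif (y axis, percent), for 5 motifs (x axis) and 5 sets of genes (bars, with the number of promoters). The PU.1 letters stood in 12.8% of promoters of genes that rose by at least 4-fold and 1.48% of those that fell, while the NRF1 letters stood in 0.671% and 14.5%.

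The rises were wider than the falls. Under scaling to the 75th percentile in place of quantile normalization 727 genes rose and 1004 fell, so the share of rises among called genes was 42.0% against 53.5%, and the median change of genes on both arrays was -0.18 against -0.09. By at least 4-fold, bounds included, 191 genes rose and 21 fell, by at least 8-fold 42 and 2, and by at least 16-fold 13 and 0. Of the rises 148 rest on a bound, and so do 54 of the falls. Of 8198 genes above background on both arrays, 60.6% lay within 1.5-fold either way. Genes with a pair of probes give the only error at hand, the SD of a change between probes, which was 0.37 log2 over 501 genes, from 0.30 for bright genes to 0.41 for dim ones, in 3 equal groups. This leaves out culture and RNA preparation. A measured second probe existed for 58 rises and 61 falls. It had the same sign for 52 and 58 of them and passed the rule the same way for 26 and 35, and it passed the opposite way for 0. The markers of the Hodgkin line, TNFRSF8 and IRF4 among them, were above background in 8 of 8 cases at both times. Those of B cells, T cells, NK cells, red cells and epithelium, such as MS4A1, CD79A and CD3E, were not above background on either array. In one sample of bulk RNA, fewer cells that express a gene cannot be told apart from less RNA in each cell.

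**Figure D2:**
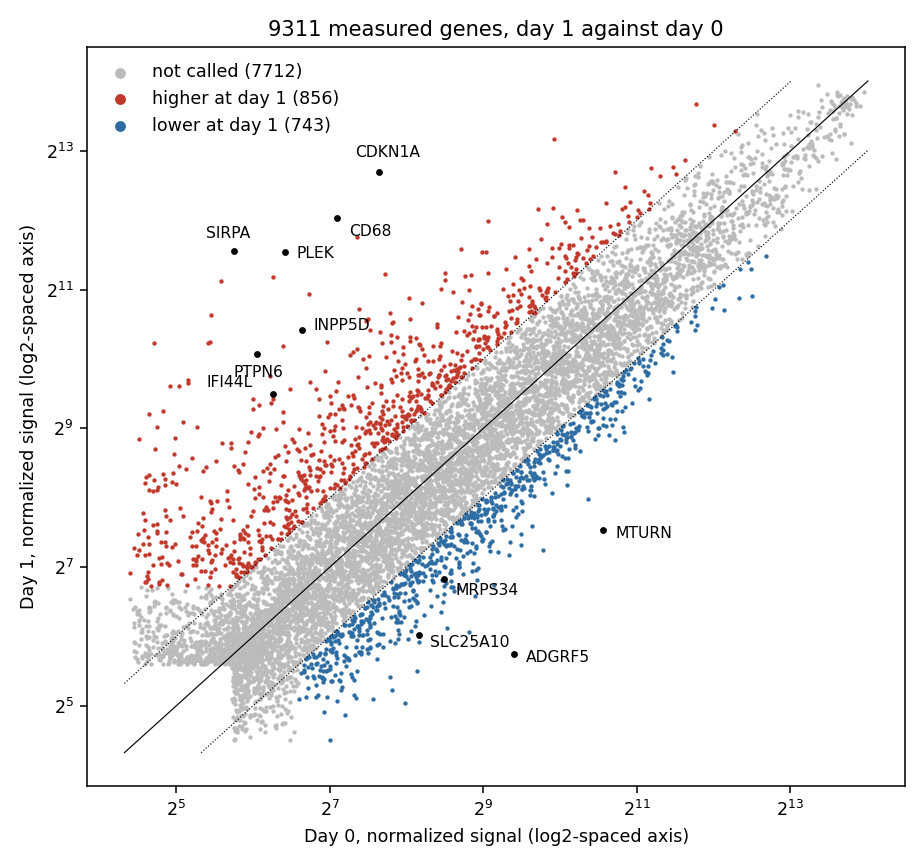
Normalized signal at day 0 (x axis) and day 1 (y axis) of 9311 measured genes, both axes spaced by log2, with 1 point per gene. Red points rose and blue points fell by the 2-fold rule, the full line marks no change and the dotted lines 2-fold, and the rises reach farther from the line than the falls.

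SIRPA, PLEK, CDKN1A, CD68 and PRG2 had the widest rises of the genes that both arrays measured above background. SIRPA, an inhibitory receptor of myeloid cells, had a signal of 53.7 to 3004, a change of 5.81 log2. PLEK, a substrate of protein kinase C in platelets and leukocytes, went from 85.2 to 2973, and CDKN1A, the cyclin-dependent kinase inhibitor p21, from 199 to 6631. CD68, a glycoprotein of macrophage lysosomes, went from 136 to 4184, and PRG2, the major basic protein of eosinophil granules, from 76.2 to 2317. These 5 genes differed in where they stood at day 3, on an array compared with the same day 0 array. There CDKN1A had a signal of 4939, PLEK of 1442 and SIRPA of 1334, while CD68 had 524 and PRG2 534. DUSP5, LAMP3, PTPN6, DSE and INPP5D followed and are described with their families. Further rises were of PPP1R18, a phosphatase subunit of the actin cytoskeleton, at 3.51, of XKR4 at 3.53 and of the membrane protease gene ADAM8 at 3.42. Among genes that only the day 1 array had above background, ARHGAP9, a GTPase-activating protein of blood cells, had the widest rise by bound, with signals of 48 and 2229, at least 42.2-fold higher. RAPGEF3, HOPX, LAD1 and CLEC4A followed, at least 30.1-fold, 22.9-fold, 22.7-fold and 22.6-fold higher, and are described with their families. Further down MYOF, a membrane repair protein, had a signal of 35.6 and 830.3, at least 15.7-fold higher. GPR84, a receptor for medium-chain fatty acids in phagocytes, had 25 and 594, at least 11.2-fold higher. Its day 3 signal was 30.3. For comparison, 4.95% of genes measured for day 3 against day 0 passed the rule upward and 2.13% downward.

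The widest falls came from unlike families. ADGRF5, an adhesion receptor, had a signal of 677 to 53.7, a fall by 3.66 log2, and MTURN went from 1514 to 184. DYNC2LI1, of the dynein motor in cilia, fell from 450.3 to 67, DCDC2, a doublecortin protein of cilia, from 368 to 69.7, and DBN1, which binds actin in neurons, from 877 to 151. CISD1, an iron-sulfur protein of the outer mitochondrial membrane, had 1314 to 252 and 1020 at day 3. PIWIL1, which guards the germ line against transposons, fell from 475 to 95.9, RIMBP2, of nerve terminals, from 287 to 60.7 and FAM117B from 722 to 159. Further falls were those of CUEDC1 from 643 to 144, of CPSF6, a factor of mRNA 3′ processing, from 485 to 113, and of TYSND1, a peroxisomal protease, from 348 to 81.4. By bound, the retinol dehydrogenase gene RDH10 was at least 5.22-fold lower, with signals of 253 and 32.8.

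**Figure D3:**
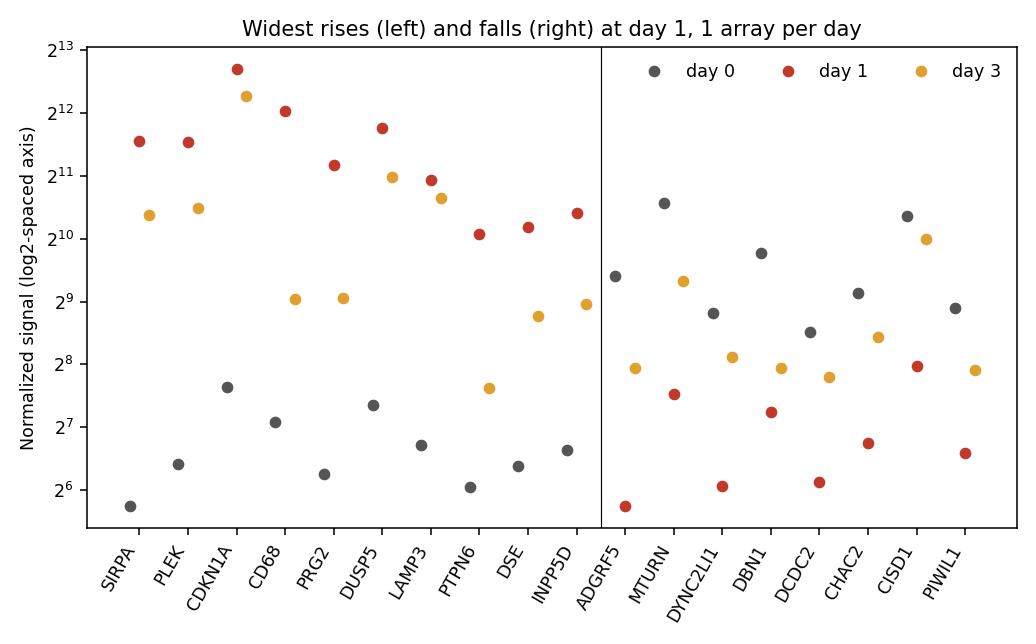
Normalized signal (y axis, spaced by log2) of 10 of the widest rises and 8 of the widest falls (x axis) at day 0, day 1 and day 3, with 1 array per day and so no error bars. Each of the 10 rises had its highest signal at day 1, and each of the 8 falls its lowest. The genes were chosen for wide changes between day 0 and day 1, which favours an extreme day 1 value. The pattern therefore says little about the course over time.

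Genes for receptors and phosphatases that dampen signalling were among the widest rises. Of 13 measured inhibitory receptor and phosphatase genes 6 rose and 2 fell, with a median of 1.06 log2, which was 0.06 over all list members on the array with no detection filter. Here as in the lists below, members can enter through the one array where they are high. Medians without the filter are therefore given where they differ by over 1.5 times, except for some lists with both medians near 0. PTPN6 encodes SHP-1, the phosphatase that inhibitory receptors recruit, and its signal went from 66.4 to 1078. INPP5D encodes SHIP1, which removes a phosphate from the lipid product of PI 3-kinase, and went from 99.3 to 1363, and its relative INPPL1 went from 1839 to 5688. CLEC4A, an inhibitory lectin of dendritic cells, had 42.6, not above background, and 1196, at least 22.6-fold higher. The falls were of the lymphocyte phosphatase gene PTPN22, at least 2.91-fold lower, and of PAG1, an adaptor that holds the kinase CSK at the membrane, which fell by 1.24, a call that ended with an offset of 50.

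Genes of kinases and adaptors in signalling also gave rises. Of 23 Src, Syk and Tec family kinases and their adaptors 11 rose and 0 fell, with a median of 1.23, against -0.05 over all measured genes, and of 0.48 with no detection filter. SRC went from 122 to 912, FYN from 78.6 to 507 and LYN, the main Src kinase of B cells, from 1038 to 4253. A second probe of FYN changed by 2.15. BTK had signals of 34.9 and 339.5, at least 6.42-fold higher, and SLA, an adaptor that lowers antigen receptor levels, had 25 and 322, at least 6.09-fold. The protein kinase C and diacylglycerol list had 5 rises and 2 falls among 16. PRKCD went from 956 to 4612 and DGKA, which consumes diacylglycerol, from 76.2 to 686, while the atypical family member PRKCI fell from 724 to 242 and DGKD from 183 to 70.1. Of 43 phosphoinositide kinase and phosphatase genes 6 rose and 0 fell. Beside INPP5D these included the myotubularin genes MTMR14, from 363 to 2417, and MTMR11, at least 5.24-fold higher.

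Regulators of the small GTPases Ras and Rap gave more rises than falls. Of 29 Ras and Rap regulators 11 rose and 2 fell, with a median of 0.54, which was 0.32 over genes on both arrays and 0.15 with no filter. RAPGEF3, which turns cyclic AMP into Rap activity, had 43.9 and 1589, at least 30.1-fold higher. RASGRP1, an activator that diacylglycerol recruits, went from 85.6 to 429, RASSF2 from 449 to 2049.8 and SPRED2, an inhibitor of Ras to ERK signalling, from 77.2 to 339.9. The falls were RIN2, by 1.27, and SPRY1, by 1.13, a call that ended without background correction, with an offset of 50 and in the authors' values. Of 39 RAB GTPases 6 rose (15.4%, against 9.19% of all measured genes) and 1 fell, and their median was 0.15, or 0.04 with no filter. Among 64 sorting nexin, VPS and ESCRT genes 1 rose and 1 fell.

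Dual-specificity phosphatases and receptors for extracellular signals changed both ways. Of 15 dual-specificity phosphatases 3 rose and 2 fell, and their median of -0.03 turned above 0 once changes were centred or the detection filter was dropped. DUSP5, which acts on nuclear ERK, went from 164 to 3476, far beyond the other members, of which DUSP18 rose by 1.40 and DUSP12 fell by 1.06, a call that ended once changes were centred. Of 51 G protein-coupled receptors 6 rose (11.8%) and 7 fell (13.7%), against 9.19% and 7.98% of all measured genes. Beside GPR84 the rises were led by GPR137B, a lysosomal membrane protein, from 180.1 to 1535, and LPAR2, a receptor for lysophosphatidic acid, from 221 to 1625. The falls included ADGRV1, at least 5.84-fold, the adenosine receptor gene ADORA2B, at least 3.36-fold, and the sphingosine 1-phosphate receptor gene S1PR1, by 1.09, a call that ended with an offset of 50. KLF2, which drives S1PR1 in lymphocytes, fell from 250.01 to 77.4. RGS genes, which speed the end of G protein signals, had 3 rises and 0 falls among 8, with RGS16 from 824 to 2797, RGS1 from 2527 to 6353 and RGS19 by 1.11. The call of RGS19 ended with an offset of 50 and in the authors' values.

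**Figure D4:**
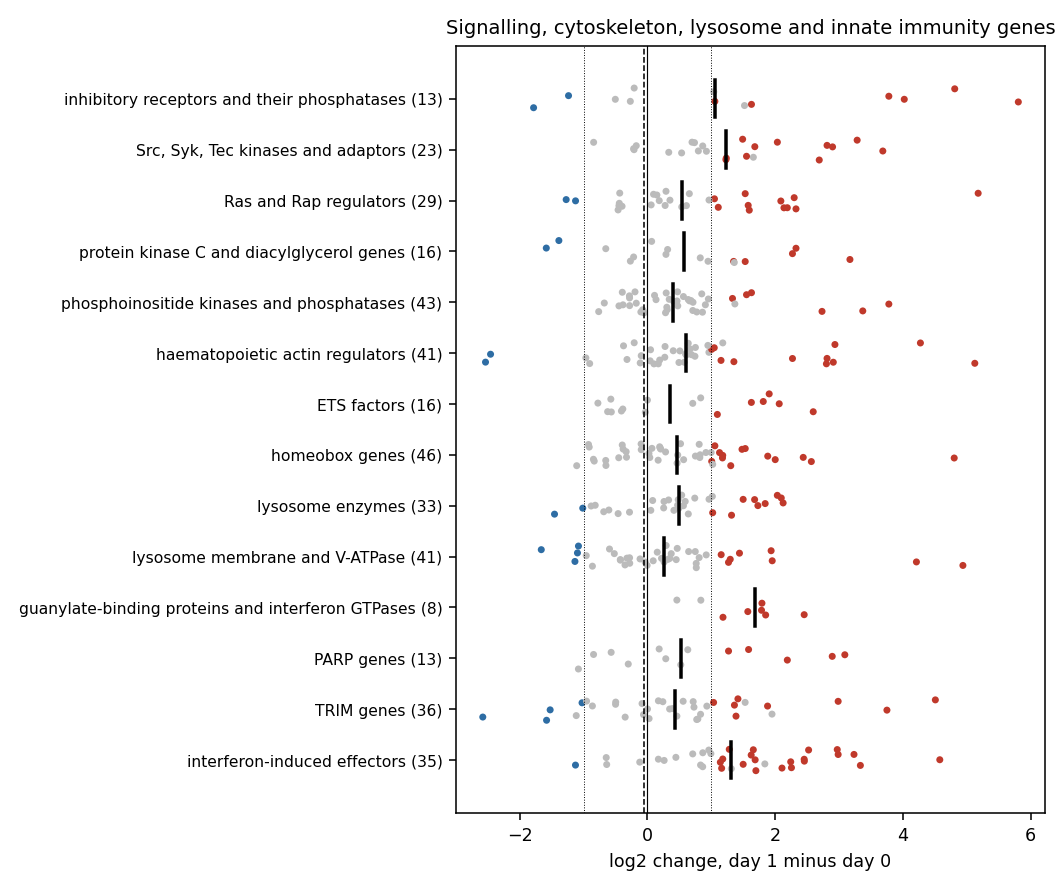
Log2 change from day 0 to day 1 (x axis) of the measured members of 14 gene lists (y axis, with the number measured), 1 point per gene, red for genes that rose and blue for genes that fell. The bar is the list's median, the dashed line the median of all measured genes and the dotted lines the 2-fold rule, and grey points past a dotted line are genes whose bound did not reach 2-fold. The Src, Syk and Tec list had 11 red points and 0 blue ones.

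The actin machinery of blood cells rose in part. Of 41 haematopoietic actin regulators 11 rose and 2 fell, with a median of 0.60. WAS, the Wiskott-Aldrich protein that starts branched actin, had signals of 26.9 and 520.5, at least 9.85-fold higher. NCKAP1L, the HEM1 subunit of the WAVE complex, went from 534 to 4083 and VASP, which lengthens filaments, from 74.6 to 359.9, and the falls were of DBN1 and of the fimbrin gene PLS1, at least 3.89-fold. Integrins gave 1 rise among 14, that of ITGAM, the macrophage integrin chain CD11b, from 43.7 to 243, at least 4.6-fold. Of 16 C-type lectin, siglec, SLAM and CD300 genes 5 rose and 0 fell. Beside CLEC4A these were SLAMF1, at least 5.21-fold, SLAMF8, at least 2.65-fold, CD244, from 64.4 to 278, and LGALS9, at least 2.14-fold, a call that ended without background correction and with an offset of 50. Tetraspanins had no settled direction, with a median of 0.01 that was below 0 in the authors' values and under scaling to the 75th percentile. Among them CD53 and CD37, both restricted to blood cells, were at least 5.5-fold and 3.32-fold higher, and TSPAN13 fell by 1.64.

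Lysosome genes lay high. Of 33 lysosome enzymes 9 rose and 2 fell, with a median of 0.49. The serine carboxypeptidase gene SCPEP1 went from 907 to 3955, GM2A, the activator that lets ganglioside GM2 be cleaved, from 422 to 1805, TPP1, a tripeptidyl peptidase, from 288 to 1179 and the sialidase gene NEU1 from 110.3 to 396. The nuclease gene DNASE2 fell from 145 to 53. Of 41 genes of the lysosome membrane and V-ATPase 8 rose and 4 fell, with a median of 0.26. After CD68 and LAMP3, a membrane protein of mature dendritic cells whose signal went from 106 to 1959.8, came the pump subunits TCIRG1 and ATP6V0A2 at 1.95 and 1.94. ATP6AP2 and ATP6V0E2, of the same pump, fell by 1.13 and 1.10. Of 37 autophagy genes 2 rose, UVRAG from 347 to 1170.5 and RUBCN, at least 2.05-fold, and their median was 0.49, or 0.26 with no filter. The RUBCN call ended without background correction and with an offset of 50.

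Genes that interferon induces formed the list with the largest number of rises of the innate immune lists. Of 35 interferon-induced effectors 20 rose and 1, LY6E, fell, with a median of 1.31. SAMD9L went from 167 to 1682, IFI44L from 76.4 to 719, MX1, a GTPase that blocks viruses, from 836 to 4579, and XAF1 from 136 to 744. OAS3 had 32.8, not above background, and 782, and OAS2 went from 62.8 to 493. Within this list the day 3 signals were lower than at day 1 for SAMD9L, at 1233, and higher for IFI44L, MX1 and XAF1, at 1423, 6237 and 1109.7. LY6E, which interferon also induces in many cells, fell from 689.6 to 316.

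Genes of interferon receptors, STAT and interferon regulatory factors and nucleic acid sensors changed as follows. Of 19 interferon receptor and STAT pathway genes 7 rose and 1 fell. STAT6, which interleukin 4 activates, went from 1106 to 3818 and the kinase gene TYK2 from 579.9 to 1385, while STAT5B fell from 425 to 143. Of 8 interferon regulatory factors 3 rose, IRF7, at least 8.36-fold, IRF9, which binds DNA in the response to type I interferon, from 700.4 to 1830.3, and IRF1 by 1.08. The IRF1 call ended with an offset of 50, under scaling to the 75th percentile and in the authors' values. IRF4, a PU.1 partner in B cells, had 4524 to 4524. Among 29 nucleic acid sensors and adaptors 10 rose and 0 fell, with ZBP1, a sensor of Z-form nucleic acid, at least 3.87-fold higher and the RIG-I relative DHX58 up from 70.0 to 258.

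Further families of antiviral proteins gave rises. Of 13 PARP genes, whose products attach ADP-ribose, 5 rose and 0 fell. PARP9 went from 89.2 to 760.1, PARP14 from 184 to 1363, PARP12 from 533 to 2430.3 and PARP10 from 204 to 612, all 4 of them interferon-induced, while PARP4 rose by 1.27. Of 8 guanylate-binding protein and MX genes 6 rose and 0 fell, with GBP2, GBP5 and GBP4 at 1.85, 1.79 and 1.57, and their probes may also read each other's transcripts. ISG15 conjugation genes gave 3 rises among 8, the ligase genes HERC6, from 246 to 833, and HERC5, by 1.15, and USP41P, a near copy of the deconjugating protease gene USP18, by 1.62. A second probe of USP41P changed by -0.50, and its call ended with the mean over probes. The HERC5 call ended under scaling to the 75th percentile and in the authors' values. TRIM genes, a ubiquitin ligase family, gave 8 rises and 4 falls among 36. TRIM10 and TRIM15, which lie side by side on chromosome 6, were at least 15.3-fold and 9.85-fold higher, and the second probe of TRIM15 changed by 3.49. TRIM22, which interferon induces, was at least 3.38-fold higher, and the near-identical TRIM51 and TRIM48 fell by 1.58 and 1.52.

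In antigen presentation, of 16 class II genes 3 rose and 0 fell, all 16 had changes above 0, from 0.33 to 1.70, and the median was 0.80. The rises were HLA-DPB1 from 310.2 to 1005, the transactivator gene CIITA from 654 to 1820.2 and HLA-DOA from 1101 to 2684, and HLA-DRA had 6998 to 9580.1. Of 12 class I peptide loading genes 4 rose, with the transporter gene TAP1 from 668 to 1949.9 and the chaperone gene TAPBP from 1798 to 4599.6, and B2M had 3570.4 to 6562. The call of PSMB8, an inducible proteasome subunit with a change of 1.04, ended under 4 of the alternatives. Proteasome genes as a whole gave 1 rise, that of PSMB8, and 3 falls among 42, with a median of -0.26. The assembly chaperone gene PSMG1 fell from 1683 to 454 and its second probe changed by -1.91.

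Cytokines and their receptors gave more rises than falls. Of 32 interleukins and receptors 9 rose and 1 fell. IL12A, a subunit of interleukin 12, went from 178 to 938, IL7R, the lymphoid survival receptor, from 113 to 757 with a second probe at 2.48, and IL10RA from 92.4 to 447. IL5, a growth factor of eosinophils, fell from 471 to 147, while the gene of its receptor, IL5RA, rose from 952 to 3098. Of 20 TNF ligand and receptor genes 6 rose and 3 fell. TNF went from 771 to 3075, the receptor gene CD40 from 226 to 1483 and the ligand gene TNFSF9 from 143 to 649, while TNFSF14, the ligand LIGHT, fell from 239.9 to 65.2 and the receptor gene TNFRSF21 from 558 to 214. TNFRSF8, which encodes CD30, the diagnostic marker of this lymphoma, had 1091 to 1244. Of 35 TRAF and NF-kB pathway genes 8 rose and 0 fell. Inhibitors of the pathway were among the rises, with the deubiquitinase gene CYLD from 106 to 349, TNFAIP3 from 4096 to 10597 and NFKBIE from 166 to 469, whereas NFKBIA had 3721 to 4067. Of 11 complement and coagulation genes 5 rose and 1 fell. PROS1, the anticoagulant protein S, had 33.8, not above background, and 543, at least 10.3-fold higher, and complement factor CFD fell by 1.44.

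Genes of ETS factors, the family of PU.1 itself, rose in 6 of 16 cases and fell in 0. ETV6, a repressor needed in blood stem cells, went from 680.2 to 2843, ETS1 from 206 to 637, ELF4 from 187 to 659 and ETV5, a target of ERK signalling, from 55.8 to 337. The other probes of ETV5 changed by 1.45 and 1.69. Of 46 homeobox genes 13 rose and 0 fell, with a median of 0.47, which was 0.28 over genes on both arrays, 0.19 at a detection p-value under 0.05 and within 0.01 of 0 with no filter. HOPX, an atypical member that does not bind DNA, had 43.4 and 1211, at least 22.9-fold higher, DLX1 went from 138 to 816 and PRRX1 was at least 5.17-fold higher. HOXC9, HOXC8, HOXC4 and HOXC6, which lie next to each other on chromosome 12, all rose, by 1.06, 1.01, 1.48 and, by bound, at least 2.71-fold. They are named because they form a run of neighbours, a choice made after their values were seen.

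Other factors of blood cells and of general transcription were mixed. Of 59 Runx, GATA, LMO, IKZF and other blood factors 11 rose and 2 fell. LMO2, the bridging protein of early blood cells, had 22.8 and 462, at least 8.74-fold higher, with 82.7 at day 3. BCL6B went from 67.4 to 285 and the mRNA decay factors ZFP36 and ZFP36L1 rose by 1.92 and 1.66, and MEF2C and IKZF5 fell by 1.14 and 1.36, the latter a call that ended with an offset of 50. PRDM1, the plasma cell regulator, went from 167 to 628 on its brightest probe, while its second probe changed by 0.50. Nuclear receptors gave 4 rises and 1 fall among 17. RARA, the retinoic acid receptor, went from 128 to 593 and VDR, the vitamin D receptor, from 58.4 to 185, and at day 3 they had 168 and 48. NR2F6 fell from 166 to 54.5. Of 35 basic helix-loop-helix genes 5 rose and 3 fell. MXD1, which competes with MYC for its partner MAX, went from 83.9 to 602, and the Notch target genes HES6 and HEY1 fell from 391 to 105 and from 669.8 to 227. The 226 measured ZNF genes had 11 rises and 8 falls and a median of -0.01, with no settled sign. ZNF385A was at least 8.83-fold higher, and ZNF518B fell by 1.77.

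CDKN1A led the genes of growth arrest. Of 28 cell cycle inhibitors 6 rose and 1 fell, and their median was 0.04, or -0.01 with no detection filter. Its sign also turned under scaling to the 75th percentile and in the authors' values. After CDKN1A and MXD1 came TXNIP, which binds thioredoxin and lowers glucose uptake, from 506 to 2998, and the glucocorticoid target gene TSC22D3, from 277 to 1007. CDKN1B, which encodes p27, had 277 to 213. CDKN1A, TXNIP and TSC22D3 are also known targets of FOXO factors, a list in which 11 rose and 2 fell among 27, with SESN3, a regulator of mTOR signalling, from 70.1 to 515 and IL7R among them. The falls there were KLF2 and S1PR1. A list of p53 target genes, which also holds CDKN1A, gave 8 rises and 1 fall among 28. The part of either group of factors was not tested.

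Cyclins went in both directions. CCND2 and CCND3, the D cyclins of lymphocytes, rose from 2919.8 to 6532 and from 643 to 1649, while CCND1 fell from 271 to 100.3, CCNE1 from 266 to 122.88 and CCNA2 from 888 to 309.8. The CCNE1 call ended with an offset of 50. Of 40 cyclins and kinases 5 rose (12.5%) and 4 fell (10.0%), against 9.19% and 7.98% of all measured genes. DNA replication genes gave 1 rise and 6 falls among 59 (10.2% falls, against 7.98% of all measured genes), with a median of -0.36. MCM10, which loads polymerase alpha, fell from 1837 to 632 whereas the helicase subunit gene MCM5 rose from 1009.6 to 2578. Of 86 mitosis and kinetochore genes 3 rose and 9 fell (10.5%). Histone-fold proteins of the centromere were among the falls, with CENPX from 1090.1 to 292 and CENPS from 239.6 to 80.9, and a second probe of CENPS changed by -1.21. Of 32 histone genes 0 rose and 5 fell, with a median of -0.52, or -0.11 with no filter, H2BC9 from 148 to 51.9 and the near-identical H2AB1 and H2AB2, by 1.66 and at least 2.77-fold. Repair of single bases gave falls too. Of 47 base, nucleotide and mismatch repair genes 7 fell (14.9%, against 7.98% of all measured genes) and 2 rose. The glycosylase gene NTHL1 went from 507 to 167 and NEIL2 from 375 to 148. Homologous recombination and Fanconi genes gave 1 fall, FANCF, among 30. By bound it was at least 2.13-fold lower, a call that ended without background correction and with an offset of 50.

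Genes of the mitochondrial ribosome gave falls and no rise. Of 28 measured genes of its small subunit 13 fell and 0 rose, with a median of -0.94 log2, and of 48 of its large subunit 11 fell and 0 rose, with a median of -0.72. MRPS34 went from 358 to 113, MRPS26 from 607 to 192 and MRPS16 from 879.98 to 331, and MRPL34 went from 722 to 177 and MRPL36 from 1966 to 657. The share of falls was 46.4% in the small subunit and 22.9% in the large, against 7.98% of all measured genes. Over the scalings tried the median of the small subunit lay between -1.12 and -0.85. The cytosolic ribosome gave 2 falls and 0 rises among 63 genes and a median of -0.19, both falls in paralogues, RPL39L from 1629 to 528 and RPS27L from 2370.4 to 1109.9. At day 3 MRPS34 had 112 and MRPL34 469, so the first stayed at its day 1 signal and the second lay between days 0 and 1.

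Respiratory chain genes lay low to differing degrees by complex. Of 44 complex I genes 10 fell and 0 rose, with a median of -0.80. Assembly factors had the widest falls, with NDUFAF6 from 258 to 62.6, NDUFAF2 from 726 to 278 and NDUFAF4 at least 2.52-fold lower, a call that ended with an offset of 50. The subunit gene NDUFB10 fell from 1357 to 550.4. Of 21 genes of complexes II and III 7 fell and 0 rose, among them the assembly factor genes SDHAF3, from 337 to 95.4, and LYRM7, from 409.6 to 135, and SDHD, a membrane anchor of complex II, from 991 to 413. Complex IV gave 1 rise and 1 fall among 28, COA8 from 114 to 343 and the cytochrome c gene CYCS from 116 to 53.2, and its median was -0.55. The CYCS call ended without background correction, with an offset of 50 and in the authors' values. Of 21 ATP synthase genes 3 fell, with ATP5F1D from 1145 to 456 and its second probe at -1.45, and the median was -0.44. The calls of the other falls, ATP5PF and ATP5MC1, ended once changes were centred and with cyclic loess.

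**Figure D5:**
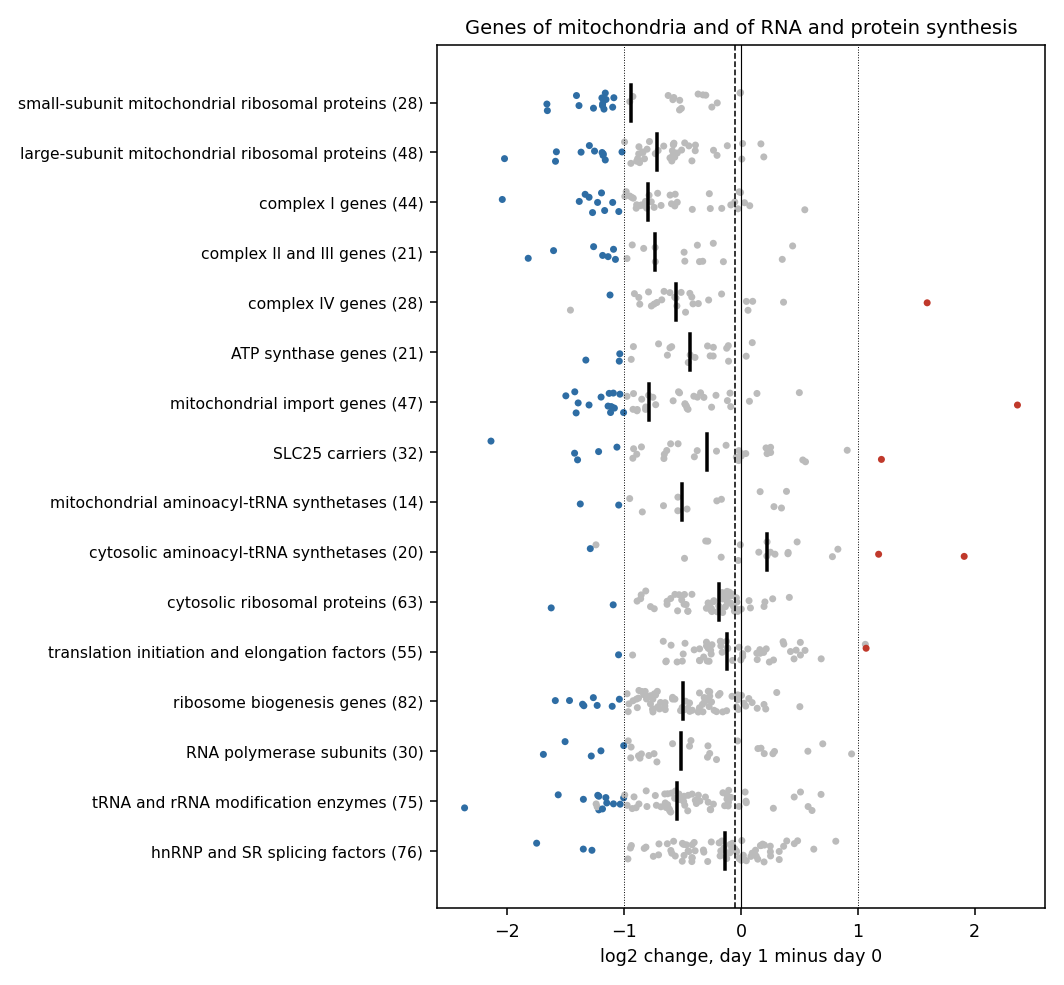
Log2 change from day 0 to day 1 (x axis) of the measured members of 16 gene lists of mitochondria and of RNA and protein synthesis (y axis, with the number measured), 1 point per gene, red for genes that rose and blue for genes that fell. The bar is the list's median, the dashed line the median of all measured genes and the dotted lines the 2-fold rule, with the small subunit of the mitochondrial ribosome lowest at -0.94 and cytosolic ribosomal proteins at -0.19.

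Of 47 import and intermembrane space genes 15 fell and 1 rose, with a median of -0.79. TOMM40, the channel of the outer membrane, went from 2226 to 903, TIMM21 from 742 to 282, DNAJC19 from 205 to 77 and the chaperonin partner HSPE1 from 4486 to 1672. CHCHD7 was the exception, from 387 to 1998. Carriers of the inner membrane gave 5 falls and 1 rise among 32. SLC25A10, which exchanges dicarboxylates for phosphate, went from 286 to 64.7 and had 73.5 at day 3, and SLC25A4, the ADP and ATP exchanger, went from 823 to 312, while SLC25A25, a calcium-regulated carrier of ATP, rose from 301 to 692. Of 14 mitochondrial aminoacyl-tRNA synthetases 2 fell and 0 rose, with MARS2 from 824 to 317, and of 20 cytosolic ones 2 rose and 1 fell. WARS1, which interferon induces, went from 1067 to 4009.8 and LARS1 fell from 1535 to 627. Iron-sulfur cluster and haem genes gave 5 falls and 0 rises among 32, among them GLRX5, which hands on new clusters, from 5725 to 2519, and ISCA1 from 576 to 239.

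Genes that make and modify stable RNAs gave falls and no rise. Of 75 tRNA and rRNA modification enzymes 12 fell and 0 rose, with a median of -0.55. GTPBP3, which modifies mitochondrial tRNAs, went from 973 to 329 and RPP40, of the RNase P and MRP particles, from 1720.1 to 735, and DTWD1 was at least 4.55-fold lower. Of 82 ribosome biogenesis genes 8 fell (9.76%, near the share of all measured genes) and 0 rose, with a median of -0.50. PNO1 went from 478 to 159 and UTP11 from 358 to 129. RNA polymerases gave 5 falls (16.7%) and 0 rises among 30. These were small shared or peripheral subunits, POLR2L from 238 to 73.5, POLR2I from 1503 to 529, POLR2F from 6575 to 2862, POLR3K from 2589 to 1064 and POLR2K by 1.00, the last a call that ended under 4 alternatives. Splicing genes gave 3 falls (3.95%) and 0 rises among 76 hnRNP and SR genes. Core spliceosome genes gave 6 falls (8.45%) and 2 rises among 71, with SNRPD1 from 435 to 169. These shares were below or near that of all measured genes. Translation factors gave 1 rise and 1 fall among 55. MYC, whose protein drives many of these genes in growing cells, had 983 to 630.1, a change of -0.64 that did not pass the rule.

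Metabolism changed enzyme by enzyme. Of 29 glycolysis and lactate genes 5 rose and 1 fell, with a median of 0.38. The glucose transporter gene SLC2A3 went from 493 to 1591, glycogen synthase GYS1 from 115 to 374 and enolase ENO2 from 2187 to 5487, while the fructose transporter gene SLC2A5 fell from 468 to 133. Of 27 tricarboxylic acid cycle genes 4 fell and 2 rose. PDP1, which turns pyruvate dehydrogenase on, fell from 319 to 86.5 and DLAT, a subunit of that enzyme, from 565 to 203, and PDK1, which turns it off, rose by 1.09, a call that ended without background correction, with an offset of 50 and in the authors' values. Fatty acid oxidation and peroxisome genes gave 6 falls and 2 rises among 32, with HADH from 690.3 to 211 and ECI1 from 2830.1 to 904. A separate list, of fatty acid synthesis and desaturation genes, gave 4 rises and 4 falls among 26. In it ACSL5, which activates fatty acids, rose from 164 to 859. ACSS2, which activates acetate, had 24 and 296, at least 5.61-fold higher.

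Nucleotide, amino acid and redox genes showed opposite members within a list. Of 32 purine genes 5 fell and 3 rose, with a median of -0.51, or -0.33 with no filter. NME1, a nucleoside diphosphate kinase and MYC target, fell from 5767 to 1929.6 and its second probe changed by -2.04, PFAS, of purine synthesis, fell from 705 to 302, and PNP, of purine breakdown, rose from 1896 to 4279. In the pyrimidine list the uridine phosphorylase gene UPP1 rose from 129 to 659 and the synthesis gene DHODH was at least 2.91-fold lower. SRM, which makes spermidine, fell from 889.5 to 295. Of 27 amino acid transporters 6 rose and 0 fell. Their median of 0.55 became -0.29 over the members above background on both arrays and 0.02 with no detection filter. SLC7A7, which exports cationic amino acids, went from 61 to 448, and SLC15A3, a peptide transporter of endosomes in immune cells, was at least 3.74-fold higher. Redox genes gave 5 rises and 6 falls among 39. CHAC2, which degrades glutathione, fell from 564 to 107, mitochondrial GLRX2 from 489.5 to 126 and GPX4, which repairs lipid peroxides, from 1318 to 498, and catalase, CAT, rose from 467 to 1255.

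Of 29 HSP70, HSP90 and small heat shock genes 4 fell (13.8%, against 7.98% of all measured genes) and 0 rose, with HSPA4L from 353 to 113 and the cochaperone gene BAG2 from 262 to 85.5. In the endoplasmic reticulum list 3 rose and 2 fell among 39. EDEM1, which sends misfolded glycoproteins to degradation, rose from 611 to 2064 and the stress sensor genes ATF6 and ERN1 by 1.33 and 1.06, while HSPA5 and CRELD2 fell by 1.02 and 1.02. The calls of ERN1, HSPA5 and CRELD2 each ended under 2 or more alternatives. Cilia genes gave 7 falls and 3 rises among 51. After DYNC2LI1 and DCDC2 came B9D1, of the gate at the base of the cilium, from 181 to 54 and DYNC2I2 from 433 to 167. Another probe of DYNC2LI1, above background at day 0 only, changed by -2.30, and a further probe was above background on neither array.

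Of the genes that mark other cell types, some rose. Of 42 macrophage and monocyte genes on the array 18 were measured, and of these 9 rose and 0 fell, with a median of 0.91, which was 0.04 with no detection filter. AIF1, an actin-binding protein of macrophages, had 28.9 and 308, at least 5.83-fold higher, whereas CSF1R, which PU.1 drives in macrophages, was not above background. Among the 7 macrophage markers CD68 and, at day 1, ITGAM were above background, CD14, CD163, LYZ and CYBB were not, and their summed intensity went from 414.9 to 4487. CD68 accounted for most of this, with an intensity of 159.9 at day 0 and 4022 at day 1. Of 20 measured dendritic cell genes 9 rose and 0 fell, with the costimulatory gene CD80 from 103 to 422 beside LAMP3, CLEC4A and IL12A. Of the 5 dendritic cell markers 2 were above background at day 0 and 4 at day 1, FLT3 was not, and their summed intensity went from 4464 to 6931. CCR7 made up most of the day 0 sum, with an intensity of 4190.3 at day 0 and 3776.9 at day 1. LAMP3 went from 126.1 to 1886.6 and CLEC4A from 60.4 to 1149.5, while CD1C did not pass the rule. Of 19 granule genes of eosinophils, mast cells and granulocytes 15 were not above background on either array, and the eosinophil genes EPX, CLC and RNASE2 were among them, while PRG2 and IL5RA rose. Of 32 B cell genes on the array 18 were not above background on either array, PAX5 among them. The 14 measured ones gave 10 rises and 1 fall, with a median of 1.69, which was 0.14 with no detection filter. Only 8 of them were above background on both arrays. The fall was of FCRL3, from 1074 to 382. Another FCRL3 probe, above background on both arrays, changed by -0.52, and a further probe, above background at day 0 only, by -1.77. Epithelial genes gave 4 rises and 0 falls among 14. The mucin gene MUC1 went from 63.8 to 624, the tight junction gene CGNL1 from 67.3 to 482, CGN from 283 to 931 and LAD1, an anchoring filament protein, was at least 22.7-fold higher, while the epithelial markers EPCAM, CDH1, KRT8 and KRT18 were not above background. The part of other cell types in these values was not tested. Neuronal genes gave 5 rises and 5 falls among 16, with NRXN2 from 66.7 to 474 and SNAP25 from 242 to 98.4.

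Called genes also stood next to each other in places. Runs of 3 or more neighbours among measured genes, all called the same way, included GBP3, GBP1, GBP2, GBP4 and GBP5, IFIT2, IFIT3 and IFIT1, OAS1, OAS3 and OAS2, and TAP2, PSMB8 and TAP1, which are related by family or share a function. Others joined unlike genes. TNF, LST1 and AIF1 rose side by side, as did TRPM4, SLC6A16 and CD37, where LST1, AIF1, SLC6A16 and CD37 rest on a bound and the call of SLC6A16 ended with an offset of 50. CEP164, IL10RA and JAML, all above background on both arrays, rose side by side by between 1.65 and 2.55. SOX4, DCDC2, MRS2 and ALDH5A1 fell side by side, by between 1.13 and 2.40. The order is that of RefSeq genes on GRCh38.p14, and no test of the runs was made. The genes that fell spanned a median of 19.5 kb, against 30.5 kb for those that rose and 28.3 kb for the others. Of 1863 probes above background that have no gene name here, 101 passed the rule upward and 89 downward.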

How the data were processed

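Total RNA of L428tetPU.1 cells was labelled with biotin and read on Illumina bead arrays, 1 array each for day 0, day 1 and day 3, and scanner values came from BeadStudio 3.3.7, per the labels' protocols. The deposited table holds, for each of 48701 probes, a raw intensity and a detection p-value per array, per the file headers. A second deposited table holds the authors' log2 values, which equal log2 intensity less the array's 75th percentile and the probe's median over the 3 arrays, within 1e-05. It served as an alternative.

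Intensities were corrected with normexp, with an offset of 16, and quantile normalized over the 3 arrays with limma 3.58.1 in R 4.3.3. Normalized signals are 2 to the power of the log2 value. Gene names came from the platform's annotation, updated through RefSeq, and 24303 probes had a name and 24398 had none here. The brightest probe stood for a gene with several. Background was a detection p-value of 0.01 or more. With 1 array per day no test was made. A gene counted as changed at 2-fold or more, and by its bound too if it was above background on 1 array. Steps were tested on simulated data. Precision is limited by the number of arrays.

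The genes named were drawn from a set, of which only part is printed: from each of 141 gene lists up to 4 called members with the widest rises and 4 with the widest falls, or all where 5 or fewer were called, the 15 widest of all in each direction on both arrays, the 8 widest by bound and a set of reference genes. Other genes named, in promoters and runs of neighbours, were chosen after their values were seen. Some lists and genes are not reported here. The members and lists were chosen with earlier results of these data known. Alternatives changed the background correction, the scaling, the detection filter, the choice of probe and the centring.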

Additional observations from a re-analysis of the deposited data

How the results depend on the processing

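Of 1599 calls none passed the rule the opposite way under the 11 alternatives tried. All alternatives use the same arrays, so this says little about whether the calls would repeat. With a normexp offset of 50, 81.1% of the rises and 68.4% of the falls kept their call. In the authors' values 77.3% of the rises and 93.0% of the falls did. The number of rises lay between 694, with a normexp offset of 50, and 1004, with no detection filter, and the number of falls between 508, with the same offset, and 1004, under scaling to the 75th percentile. That scaling moved the share of rises among called genes from 53.5% to 42.0%, and the authors' values, which use the same percentile, gave 755 rises and 893 falls. The cause was not tested. Without background correction 760 and 619 remained, without genes on a single array 708 and 689, and with changes less the median change 981 rose and 607 fell. A family's count moves with where no change is set. The mean over probes gave 990 and 830, cyclic loess 876 and 764, and normalization without day 3 865 and 751. Dim genes are limited by the signal over background. No paired analysis was possible because each day has 1 array.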

Other observations

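Ion channels gave 9 rises (20.5%) and 5 falls (11.4%) among 44 measured, against 9.19% and 7.98% of all measured genes. TRPM4, a channel that calcium opens, had a signal of 225 to 1468 and TRPV2 of 456 to 2360.2, and the chloride transporter gene CLCN6 went from 234 to 1282. KCNMB1, an accessory subunit of the large potassium channel, was at least 6.6-fold higher, whereas its relative KCNMB4 fell from 231 to 60.2. Glycosyltransferases gave 7 rises (10.6%, near the share of all measured genes) and 3 falls (4.55%) among 66. DSE, which makes dermatan sulfate, went from 83.6 to 1163 and ST3GAL5, which makes the ganglioside GM3, from 59.3 to 406, and B4GALT2 fell from 281 to 90.2. Exchange factors of ARF proteins were among the 5 rises and 0 falls of 24 ARF and ARL genes, with CYTH4 from 53.8 to 351 and the GAP gene ACAP1 from 228 to 916.

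Of 40 chromatin remodelling genes 5 rose and 2 fell, with the histone chaperone gene DAXX from 157 to 1099 and, at day 3, 164. Of 50 histone methyltransferase and demethylase genes 3 rose (6.0%) and 2 fell (4.0%), both below the shares of all measured genes. SETD1B went from 76.6 to 231 and SETD6 from 300.1 to 78.9. Among ubiquitin genes, PELI1, a ligase of Toll-like receptor signalling, rose from 151 to 705, OTULIN, which cuts linear ubiquitin chains, rose from 642 to 1926, and RNF31, which makes those chains, rose from 205 to 561. UBE2T, the conjugating enzyme of the Fanconi pathway, fell from 1831 to 494 and the hydrolase gene UCHL3 from 541 to 193. The Notch inhibitor gene NUMB rose from 300.3 to 1069, and the fringe gene LFNG was at least 2.47-fold lower, a call that ended with an offset of 50. Of the housekeeping genes, GAPDH had 14024 to 13098 and ACTB 14822 to 12841, but a second probe of ACTB changed by 1.85.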
